A study of Arabidopsis thaliana with 12 samples.

Results

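ARABIDILLO-1 and ARABIDILLO-2 are a pair of closely related Arabidopsis proteins that carry an F-box and a run of Armadillo repeats, the repeat that animal β-catenin is built from. F-box proteins act as the substrate-choosing subunit of ubiquitin ligases, and the ARABIDILLO proteins are known for promoting the branching of the root into lateral roots. The response of the root transcriptome to more ARABIDILLO was set here against its response to the loss of ARABIDILLO. Each line was first compared with the wild type of its own genetic background, and the difference between the 2 responses was then tested. All 12 of the 12 arrays of the series entered, 3 in each of 4 groups taken from the sample titles.

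The material was roots of 7-day-old Arabidopsis thaliana seedlings, and 1 array was hybridised per RNA sample. The groups were wild-type Col-0, the line ara1OX carrying 35S:Ara1YFP in Col-0, wild-type Col-3, and the line ara1/2mut, given as ara-1/2 in Col-3. The 35S promoter of a plant virus is active in most plant cells, so the fusion to yellow fluorescent protein is not restricted to the cells that normally express the gene. The alleles of the mutant and the number of independent transgenic lines are not stated in the labels. Seed was held at 4 °C for 2 days, and all groups were grown alike at 24 °C in 16 h of light and 8 h of dark. The labels number the replicates 1 to 3 without saying whether they were separate cultures, so the p-values speak only of the spread among these samples, and that spread may be technical.

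Signals are MAS5 intensities on a linear scale, each array having been scaled to the same trimmed mean of 100. A response is the log2 ratio of a line over its own wild type, and the difference in response is the ara1OX response minus the ara1/2mut response. A value above 0 therefore means relatively more transcript under gain than under loss. Of 22746 non-control probe sets, 13648 passed a filter on mean signal. Of these, 7356 (53.9%) have a named gene and the other 6292 are given by their probe set identifier. Neither ARABIDILLO gene has a named probe set, so the level of the targeted genes, the usual check of such labels, is not analysed here. Either gene may be among the unnamed probe sets. Replicates of ara1OX resembled each other less than those of the wild types. The pooled within-group SD over probe sets was 0.45 on the log2 scale in ara1OX and 0.39 in ara1/2mut, against 0.31 in Col-0 and 0.31 in Col-3. The hybridisation spike-ins of ara1OX replicate 3 had a mean log2 signal of 10.81, while the other 11 arrays lay between 7.82 and 9.55. Of 9 shoot markers looked for, 2 had a named probe set (RCA and LHCB4.1), and their summed signal was 152 to 221 in Col-0, 170 to 230 in ara1OX, 161 to 239 in Col-3 and 186 to 339 in ara1/2mut. Root hair genes EXPA7 and EXPA18 and lateral root genes LBD16, LBD29 and PUCHI also had signal. The markers listed for non-hair epidermis, endodermis, root cap, xylem and phloem had no named probe set.

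The difference in response passed the adjusted threshold (limma, Benjamini-Hochberg adjusted p under 0.05) for 2 of 13648 probe sets, or 0.0147%. Both are unnamed in the tables used here, so whether either measures a targeted gene cannot be told. Both were above 0, and in both the ara1OX arrays stood apart from the other 9. In the comparisons that make up the difference, 3 probe sets (0.022%) passed for ara1OX against Col-0 and 0 (0%) for ara1/2mut against Col-3. The 3 became 14 without ara1OX replicate 2, 7 without ara1/2mut replicate 1, 5 without ara1OX replicate 3 and 15 with array weights in limma. With the replicate number as a block they became 17, though the labels do not say that the numbers mark a shared batch. At an unadjusted p under 0.05 the ara1/2mut comparison held 243 probe sets above its wild type and 243 below it (1.78% each), and with array weights in limma 4 passed the adjusted threshold. Without an adjustment, 724 probe sets (5.3%) reached a p under 0.05 in the difference in response, 286 (2.1%) above 0 and 438 (3.21%) below 0.

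Among all probe sets, the 3 ara1OX arrays were clear of the 3 Col-0 arrays above them in 4.87% and below them in 6.57%, and the ara1/2mut arrays were clear of Col-3 in 5.08% and 4.02%. Probe set 266815_at had the largest difference among the 2 that passed. Its signal was 60.1, 45.0 and 53.6 in the Col-0 arrays and 520, 389 and 297 in the ara1OX arrays. In the other background it was 71.9, 77.6 and 51.6 in Col-3 and 58.3, 27.5 and 15.5 in ara1/2mut. All ara1OX arrays were above all Col-0 arrays, whereas the ara1/2mut arrays overlapped those of Col-3, with 2 of the 3 below every Col-3 array. The probe set rose 7.45-fold in ara1OX (log2 2.90, SE 0.36, limma adjusted p = 0.00287). In ara1/2mut it was 2.26-fold lower (log2 -1.18, SE 0.36, limma adjusted p = 0.999). The difference in response was 4.07 on the log2 scale (SE 0.51, 95% confidence interval 2.99 to 5.16, limma adjusted p = 0.00926), a 16.9-fold ratio of the 2 fold changes. The call depended on single arrays, with an adjusted p of 0.0536 without Col-0 replicate 2, 0.0687 without Col-3 replicate 2 and 0.0538 without ara1/2mut replicate 2, while the difference itself stayed between 3.62 and 4.57 over the 12 fits that each leave out 1 array. With no variance trend in limma the adjusted p was 0.112. The ara1/2mut signals of 27.5 and 15.5 were close to the filter limit, a signal of 22.4. With a pseudocount of 16 the difference was smaller, at 3.39.

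Probe set 265032_at moved on the gain side. Its signals were 148, 137 and 120 in Col-0 and 329, 306 and 339 in ara1OX. The other background gave 161, 142 and 138 in Col-3 and 139, 117 and 132 in ara1/2mut. The ara1OX arrays were the 3 highest of the 12 and the other groups lay within a narrow band, with Col-3 and ara1/2mut overlapping. The rise in ara1OX was 2.42-fold (log2 1.27, SE 0.15, limma adjusted p = 0.00287) and the ara1/2mut response was -0.18 on the log2 scale (SE 0.15). The difference of 1.45 (SE 0.21, 95% confidence interval 1.00 to 1.90, limma adjusted p = 0.0304) was called with all arrays, and of the 12 fits that each leave out 1 array only the one without ara1/2mut replicate 1 kept it past the threshold. Those 12 fits put the difference between 1.37 and 1.52.

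One more probe set, 262454_at, passed in ara1OX against Col-0 but not in the difference in response. It measured 110, 112 and 90.5 in Col-0 and 289, 249 and 245 in ara1OX, against 118, 133 and 141 in Col-3 and 150, 134 and 117 in ara1/2mut. The line with the transgene was above all other arrays, and the mutant lay around its wild type. Its ara1OX response was 1.33 (SE 0.16, limma adjusted p = 0.00287), its ara1/2mut response 0.03 (SE 0.16), and the difference 1.29 (SE 0.23, limma adjusted p = 0.184). The plot of these 3 probe sets by array shows the common feature, a gain-side rise, and the single case with lower ara1/2mut values. Their log2 signals were correlated over the 12 arrays, which include the ara1OX arrays that set them apart, with Pearson r of 0.93 for 265032_at with 266815_at, 0.92 for 262454_at with 265032_at and 0.86 for 262454_at with 266815_at.

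**Figure D1:**
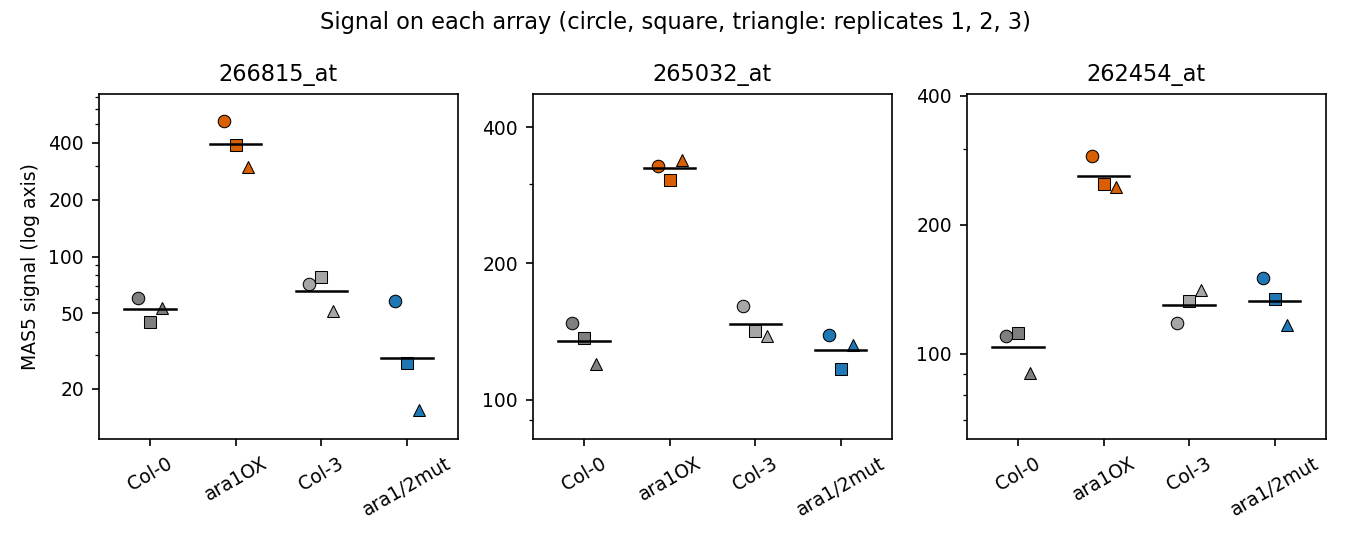
MAS5 signal (log axis) of probe sets 266815_at, 265032_at and 262454_at on each of the 12 arrays, by group; circle, square and triangle are replicates 1, 2 and 3 and the bar is the mean of the log2 signals. The ara1OX arrays are the 3 highest in every panel, and for 266815_at the ara1/2mut arrays reach from 58.3 down to 15.5 while Col-3 lies between 51.6 and 77.6.

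The named gene whose log2 signal followed 266815_at most closely over the 12 arrays was AT5G07570 (Pearson r = 0.96), followed by AT5G15870 (0.88), AT1G09330 (0.87), AT2G03470 (0.87) and PLIM2b (0.87), the last a LIM-domain protein of the actin cytoskeleton. AT5G07570 had signals of 61.7, 72.4 and 44.0 in Col-0 and 214, 183 and 153 in ara1OX. It had 65.1, 83.6 and 47.6 in Col-3 and 82.3, 43.9 and 22.3 in ara1/2mut. Its ara1OX arrays were clear of Col-0, and its ara1/2mut arrays spread over and below those of Col-3, the order of the 3 ara1/2mut arrays being the same as for 266815_at. The difference in response was 2.20 (SE 0.52, limma adjusted p = 0.579), from an ara1OX response of 1.64 and an ara1/2mut response of -0.56. The closest named gene to 265032_at was AT2G41730 (r = 0.91), which belongs to the hypoxia list described below, and the closest to 262454_at was AT2G46900 (r = 0.90). AT2G03470 was among the 5 closest for each of the 3 probe sets, with r between 0.87 and 0.89 and a difference in response of 0.39. These correlations include the ara1OX arrays for which the 3 probe sets were called. Genes higher in ara1OX are therefore favoured by construction, and a shared control was not tested.

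Over all probe sets the measured responses were close to uncorrelated. The Pearson correlation between the ara1OX and the ara1/2mut response was -0.04 and the Spearman correlation -0.05 over 13648 probe sets. The comparisons share no array, but probe sets are not independent replicates, and these correlations are descriptions. Noise between replicates pulls such a correlation towards 0. The pooled within-group SDs, 0.31 to 0.45, were of similar size to the SDs of the responses given below. The correlations therefore cannot tell whether the underlying responses are mirrored. The 319 probe sets higher in ara1OX at an unadjusted p under 0.05 (2.34%) had a median response of 0 in ara1/2mut, with 49.8% of them above 0, against 51.6% of all probe sets. The 558 lower in ara1OX (4.09%) had a median of 0.03 in ara1/2mut, with 55% above 0. In the other direction, the 243 higher in ara1/2mut had a median of -0.05 in ara1OX with 43.2% above 0, and the 243 lower had a median of -0.01 with 48.6% above 0, against 44.6% of all. Responses were wider under gain. Their SD over probe sets was 0.33 in ara1OX and 0.27 in ara1/2mut, and 1.6% of probe sets had an absolute log2 response over 1 in ara1OX against 0.608% in ara1/2mut. The larger within-group spread of the ara1OX arrays stands beside this, and its part in it was not tested.

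**Figure D2:**
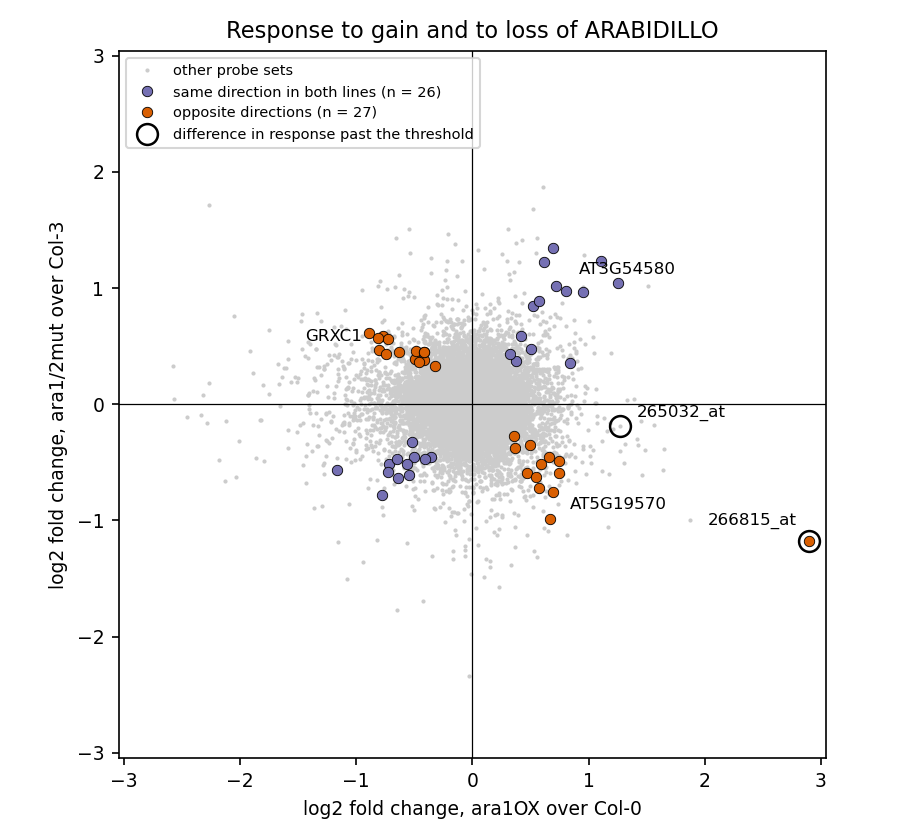
Response of each of the 13648 probe sets to gain (x axis, log2 fold change of ara1OX over Col-0) and to loss (y axis, log2 fold change of ara1/2mut over Col-3). Orange points are the 27 with opposite and purple points the 26 with equal directions (unadjusted p under 0.05 on each axis), black rings mark the 2 past the adjusted threshold in the difference, and the grey cloud has no tilt (Pearson r of -0.04).

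Few transcripts met the limits used here for mirrored movement. Taking an unadjusted limma p under 0.05 in both comparisons, 27 probe sets (0.198%) moved in opposite directions and 26 (0.191%) in the same direction. The opposite group held 13 (0.0953%) that were up under gain and down under loss, and 14 (0.103%) of the reverse kind. With the stricter limit of an unadjusted p under 0.01, 2 probe sets (0.0147%) were opposite, 266815_at and AT5G19570, and 0 (0%) moved the same way. The count of opposite probe sets ranged from 14, without Col-0 replicate 3, to 43, without ara1/2mut replicate 3. It was also more than 1.5 times smaller without Col-0 replicate 1 (15) and without ara1/2mut replicate 2 (17). By a rule on the arrays alone, no overlap between line and wild type in both comparisons, 101 probe sets (0.74%) were opposite, 39 (0.286%) up under gain and 62 (0.454%) down under gain, and 59 (0.432%) went the same way. Of the 27, 18 had the larger response on the ara1OX side. In 6 of the 27 the wild types Col-3 and Col-0 lay further apart than ara1OX and ara1/2mut did, so that in those 6 the difference in response came mainly from the wild-type side of the contrast.

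Of the 13 opposite probe sets that were higher in ara1OX, 8 have a named gene, and these are given by locus, since the tables used here name no function for them. AT5G19570 had signals of 33.3, 37.1 and 39.1 in Col-0 and 56.3, 66.1 and 55.1 in ara1OX, against 60.3, 47.8 and 59.8 in Col-3 and 34.3, 28.4 and 36.5 in ara1/2mut. Each line was clear of its own wild type, in opposite directions, and each line lay near the wild type of the other background. The gain response was 0.69 (SE 0.23) and the loss response -0.76 (SE 0.23), a difference of 1.45 (SE 0.32, limma adjusted p = 0.423). It kept an unadjusted p under 0.05 on both sides in all 20 alternative fits that tested it, the stricter filter having left it out.

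AT3G58550 had signals of 899, 1258 and 1028 in Col-0 and 1376, 1598 and 2082 in ara1OX. In the Col-3 background it measured 1095, 1121 and 1291 in the wild type and 836, 910 and 807 in ara1/2mut. The wild types overlapped here. All ara1OX arrays were above the other 9, and the ara1/2mut arrays were below all Col-3 arrays and overlapped Col-0 by the values 910 and 899. The gain response was 0.66 (SE 0.17) and the loss response -0.46 (SE 0.17), and the difference was 1.11 (SE 0.24, limma adjusted p = 0.412). It kept both unadjusted p-values under 0.05 in 20 of 21 alternative fits.

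AT2G31945 measured 91.3, 115 and 58.7 in Col-0 and 121, 157 and 153 in ara1OX, against 160, 130 and 169 in Col-3 and 102, 89.7 and 112 in ara1/2mut. Neither line overlapped its wild type, but the Col-3 arrays were as high as those of ara1OX and the ara1/2mut arrays as low as those of Col-0. Its difference was 1.34 (SE 0.32, limma adjusted p = 0.579), and it kept both p-values in 18 of 21 alternatives. AT2G47200 showed the same arrangement, with mean signals of 277 in Col-0 and 403 in ara1OX, against 375 in Col-3 and 242 in ara1/2mut (n = 3 each), and a difference of 1.17 (SE 0.29, limma adjusted p = 0.674). The other 4 named genes of this kind were AT4G22460, AT3G02640, AT3G07940 and AT5G37480, with differences of 1.23, 1.29, 0.74 and 0.85. They kept both p-values in 16, 13, 10 and 10 of the 21 alternatives.

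The 14 opposite probe sets that were lower in ara1OX include 5 with a named gene. GRXC1 encodes glutaredoxin C1, a small enzyme that uses glutathione to reduce disulfides. Its signals were 229, 253 and 187 in Col-0 and 149, 121 and 113 in ara1OX. They were 173, 232 and 192 in Col-3 and 303, 290 and 232 in ara1/2mut. The ara1OX arrays were below all others, and the ara1/2mut arrays were no lower than the highest Col-3 array, with the wild types overlapping. GRXC1 was 1.75-fold lower in ara1OX (log2 -0.80, SE 0.18) and 1.39-fold higher in ara1/2mut (log2 0.47, SE 0.18). The difference of -1.27 (SE 0.25, 95% confidence interval -1.81 to -0.74) had the smallest p of all named genes below 0 and still missed the threshold (limma adjusted p = 0.365). Both unadjusted p-values stayed under 0.05 in 18 of 21 alternatives.

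The other glutaredoxins measured did not reach an unadjusted p under 0.05 in the difference. GRXC2, of the same class as GRXC1, had a difference of 0.19 (SE 0.29) and GRX480 one of -0.60 (SE 0.33). AT1G60770 measured 63.2, 69.9 and 84.0 in Col-0 and 48.0, 38.6 and 36.8 in ara1OX, against 48.5, 45.9 and 56.4 in Col-3 and 60.7, 85.0 and 79.4 in ara1/2mut. Both lines were clear of their wild types, ara1OX below and ara1/2mut above, and Col-3 was below Col-0. The difference was -1.38 (SE 0.31, limma adjusted p = 0.423).

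NAI1 encodes a basic helix-loop-helix transcription factor required for the endoplasmic reticulum bodies of seedlings, the compartments that store β-glucosidases. It measured 232, 204 and 267 in Col-0 and 158, 167 and 204 in ara1OX, against 157, 151 and 179 in Col-3 and 185, 267 and 220 in ara1/2mut. The ara1OX arrays were at or below the lowest Col-0 array and the ara1/2mut arrays above all of Col-3, by small margins. The responses were -0.42 (SE 0.17) and 0.45 (SE 0.17), and the difference was -0.87 (SE 0.25, limma adjusted p = 0.826). Both p-values stayed under 0.05 in 12 of 21 alternatives. The other 2 named genes were the plastid gene psbL, given with the plastid genes below, and AT5G19370, with a difference of -0.80 (SE 0.25). They kept both p-values in 7 of 20 and 7 of 21 alternatives.

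Among named genes none passed the adjusted threshold in the difference in response. The 15 with the smallest p above 0 had differences of 0.85 to 2.20 and limma adjusted p-values of 0.365 to 0.819, and all 15 had opposite signs in the lines. The 15 below 0 had differences of -2.12 to -0.87 and adjusted p-values of 0.365 to 0.865, 13 of them with opposite signs. As these genes were taken for their difference, the signs describe them and support nothing further. The ara1OX response was the larger one in 10 of the first 15 and in 12 of the second. In 4 and 2 of them, respectively, the gap between the wild types exceeded that between the lines. AT5G14330 is such a case, with mean signals of 38.4 in Col-0 and 100 in ara1OX, against 103 in Col-3 and 75.8 in ara1/2mut.

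**Figure D3:**
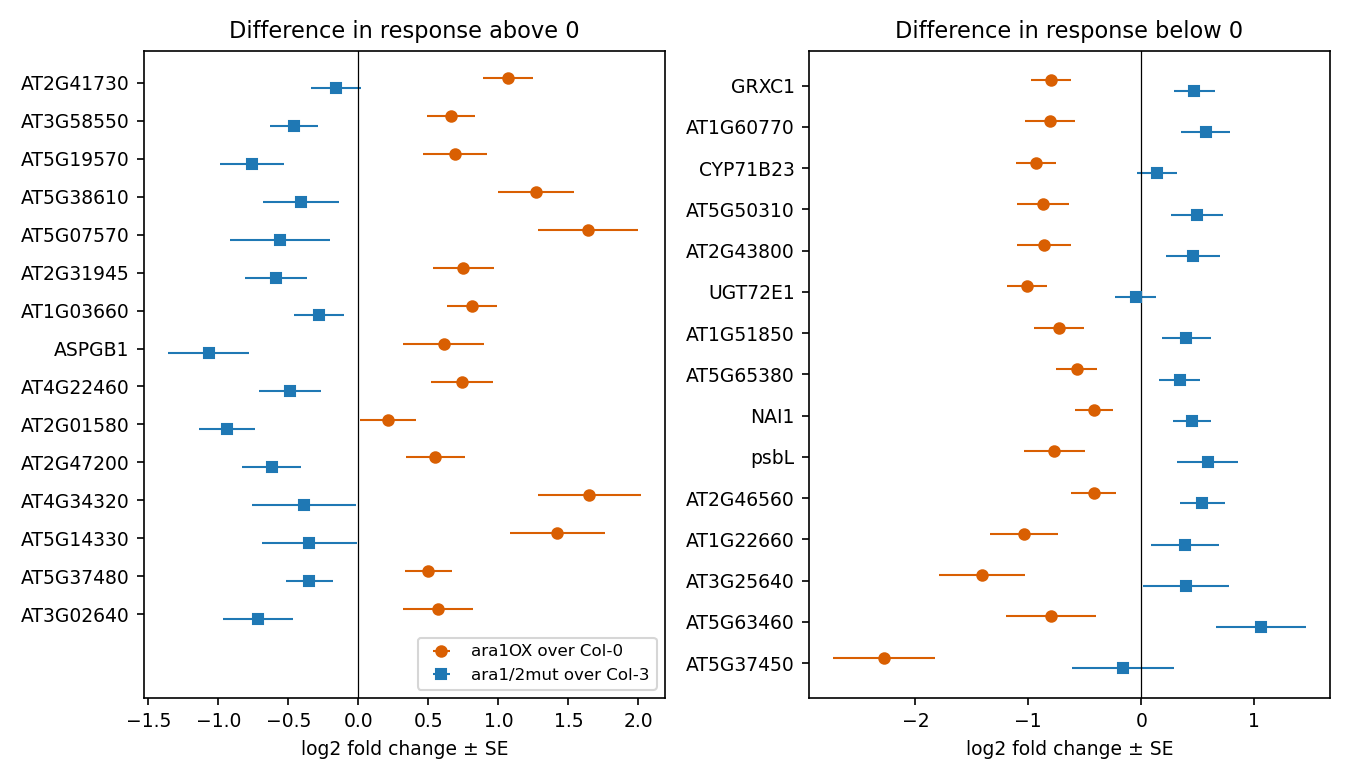
Log2 fold change ± SE of ara1OX over Col-0 (orange circles) and of ara1/2mut over Col-3 (blue squares) for the 15 named genes with the smallest p in each direction of the difference in response, smallest p at the top. The ara1OX response is the larger one in 10 of the 15 genes on the left and in 12 of the 15 on the right, and no gene passes the adjusted threshold in the difference.

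In some of these genes 1 line carried most of the difference. ASPGB1, which encodes an asparaginase, the enzyme that releases ammonia from asparagine, leaned on the loss side. Its signals were 140, 145 and 76.4 in Col-0 and 191, 218 and 134 in ara1OX, against 154, 271 and 171 in Col-3 and 67.1, 123 and 93.9 in ara1/2mut. The ara1/2mut arrays were below all Col-3 arrays, and the ara1OX arrays overlapped Col-0. It was 2.1-fold lower in ara1/2mut (log2 -1.07, SE 0.29) with a response of 0.61 (SE 0.29) in ara1OX, and the difference was 1.68 (SE 0.41, limma adjusted p = 0.674).

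CYP71B23, a cytochrome P450 monooxygenase, leaned on the gain side. It measured 343, 363 and 240 in Col-0 and 163, 147 and 181 in ara1OX, against 306, 310 and 314 in Col-3 and 405, 354 and 279 in ara1/2mut. The ara1OX arrays were the 3 lowest of the 12, and ara1/2mut lay on both sides of Col-3. The ara1OX response was -0.93 (SE 0.18), the ara1/2mut response 0.14 (SE 0.18) and the difference -1.07 (SE 0.26, limma adjusted p = 0.579). Of the 7 other cytochrome P450 genes measured, CYP84A4 also reached an unadjusted p under 0.05, with a difference of -0.82, and the median of the 8 was -0.19. Of all probe sets 3.21% reached that limit below 0.

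The 3 UGT72E glucosyltransferases, which attach glucose to monolignols, the building blocks of lignin, and to related phenolics, were each lower in ara1OX. UGT72E1 had signals of 1430, 1043 and 1081 in Col-0 and 442, 633 and 704 in ara1OX. In the other background it had 1129, 1137 and 1146 in Col-3 and 1007, 1016 and 1307 in ara1/2mut. The ara1OX arrays were the 3 lowest, and ara1/2mut spanned Col-3. UGT72E3 was at much lower signal, 54.4, 57.9 and 61.5 in Col-0 and 20.3, 34.8 and 14.3 in ara1OX, against 66.3, 59.3 and 69.5 in Col-3 and 40.4, 61.3 and 54.5 in ara1/2mut.

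UGT72E2 measured 905, 776 and 999 in Col-0 and 671, 663 and 686 in ara1OX, against 876, 792 and 811 in Col-3 and 964, 846 and 803 in ara1/2mut. For all 3 genes the ara1OX arrays lay below every Col-0 array, as in 6.57% of all probe sets, while ara1/2mut overlapped Col-3. The 3 are described because of their small p in the difference, so this describes them and supports nothing further. The ara1OX responses were -1.01 (SE 0.18), -0.40 (SE 0.13) and -1.42 (SE 0.30) for UGT72E1, UGT72E2 and UGT72E3, with limma adjusted p-values of 0.109, 0.626 and 0.17. The ara1/2mut responses were -0.05, 0.07 and -0.34. The differences in response were -0.96, -0.47 and -1.08, each with an unadjusted p under 0.05 and none past the adjusted threshold. They were the only 3 of 28 measured UDP-glycosyltransferases to reach an unadjusted p under 0.05, and the median of all 28 was 0.04. Of all probe sets 3.21% reached that limit below 0.

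PUB22 and PUB23, a pair of closely related U-box ubiquitin ligases known for dampening immune signalling, had lower values in ara1OX. PUB23 measured 178, 198 and 143 in Col-0 and 111, 106 and 150 in ara1OX, against 152, 167 and 174 in Col-3 and 174, 209 and 169 in ara1/2mut. One ara1OX array fell within the range of Col-0, and ara1/2mut overlapped Col-3. The differences were -0.67 (SE 0.25) for PUB23 and -0.61 (SE 0.28) for PUB22, with limma adjusted p-values of 0.905 and 0.915. They were 2 of 12 measured RING and U-box genes below 0 at an unadjusted p under 0.05, and none was above 0. Over all probe sets the shares were 3.21% below 0 and 2.1% above 0. The list had a median difference of -0.13, and PUB24, another close relative, had a difference of 0.31.

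Gene lists were described by counts and medians, beside the median difference of -0.04 over all probe sets, of which 45% were above 0 and 55% below. Of 47 lists planned, 22 had at least 5 measured genes. The medians of 19 of them lay between -0.20 and 0.23. The plastid-encoded genes (median -0.53), the extensins (-0.32) and the hypoxia list (0.62) lay outside. Each of these 3 medians moved by more than 1.5 times when single arrays were left out, as given with each.

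**Figure D4:**
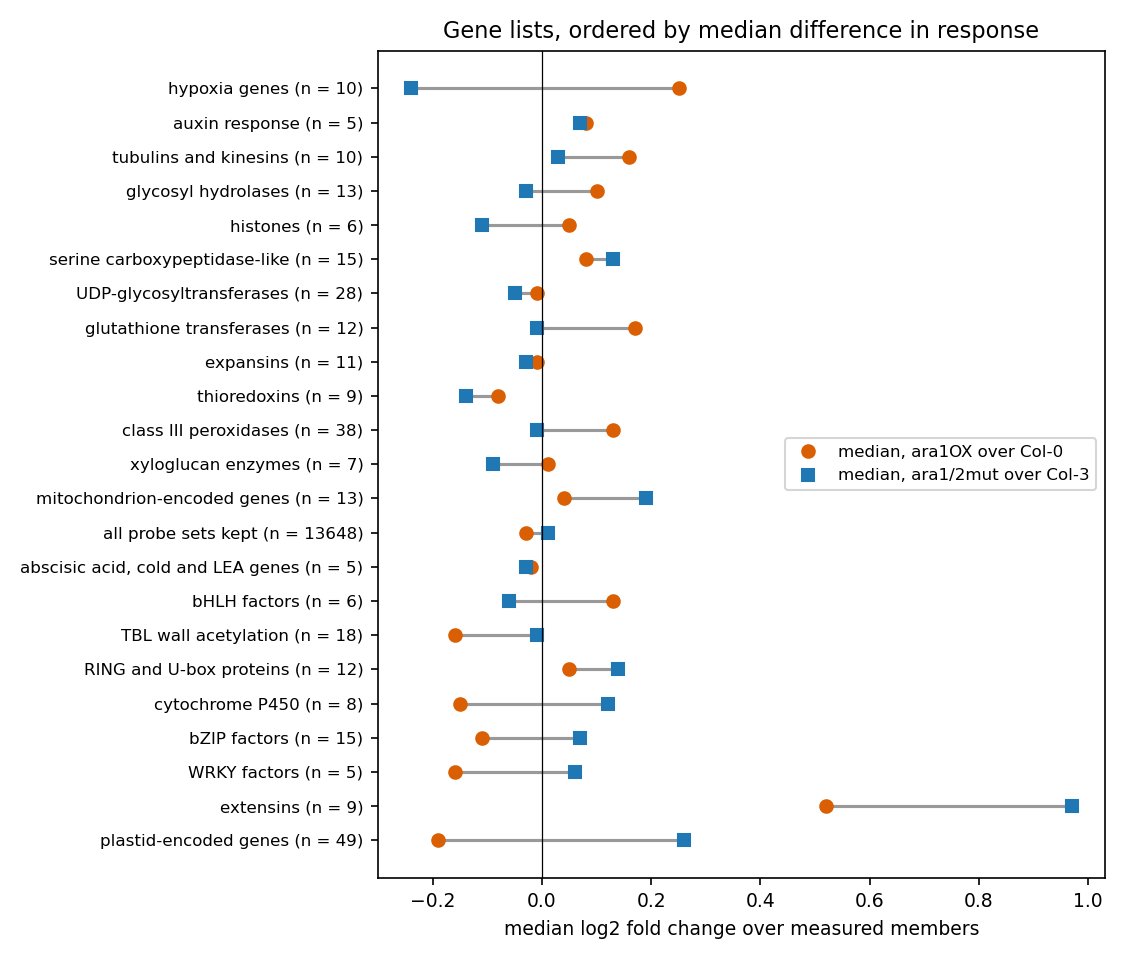
Median log2 fold change of each gene list in ara1OX over Col-0 (orange circles) and in ara1/2mut over Col-3 (blue squares), ordered by the median difference in response, with the number of measured genes in brackets and all 13648 probe sets for comparison. The hypoxia list (0.25 and -0.24) and the plastid-encoded genes (-0.19 and 0.26) have medians on opposite sides of 0, and the extensins (0.52 and 0.97) lie to the right in both lines.

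Plastid-encoded genes, which specify photosystem subunits, the plastid NADH dehydrogenase, ribosomal proteins and the plastid polymerase, are transcribed in root plastids at low level. Of 69 named, 49 passed the filter. Their median response was -0.19 in ara1OX and 0.26 in ara1/2mut, and the difference was below 0 for 44 and above 0 for 5. Reverse movement, down under gain and up under loss, was seen in the signs of 30 of the 49, against 29.4% of all probe sets. An unadjusted p under 0.05 was reached by 6, all below 0: psbL, clpP, ndhA, rps19, ndhI and atpE. The share of all probe sets below 0 at that limit was 3.21%. None passed the adjusted threshold.

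The mean log2 signal of the 49 plastid genes on each array was 7.38, 6.64 and 6.78 in Col-0 and 6.42, 6.94 and 6.78 in ara1OX, against 6.72, 6.69 and 6.97 in Col-3 and 6.80, 7.63 and 6.89 in ara1/2mut. Both line comparisons overlapped, and Col-0 replicate 1 and ara1/2mut replicate 2 stood above the other 10 arrays. The median difference of -0.53 became -0.27 without Col-0 replicate 1 and -0.26 without ara1/2mut replicate 2. Without both it was -0.03, close to that of all probe sets, a setting added after seeing the data. The values of the single genes show the same arrays. clpP, a protease subunit, measured 1365, 933 and 970 in Col-0 and 302, 758 and 1056 in ara1OX, against 874, 523 and 805 in Col-3 and 1115, 2138 and 886 in ara1/2mut. Its groups overlapped in Col-0 and ara1OX. All ara1/2mut arrays were above all Col-3 arrays, replicate 3 narrowly (886 against 874), and ara1/2mut replicate 2 was the highest of the 12 arrays.

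psbL, a small subunit of photosystem II, had the smallest p of the list. It measured 80.2, 51.1 and 39.5 in Col-0 and 39.7, 33.5 and 24.4 in ara1OX, against 44.8, 45.3 and 51.0 in Col-3 and 69.4, 80.1 and 63.3 in ara1/2mut. All ara1/2mut arrays were above all Col-3 arrays, and ara1OX and Col-0 overlapped by the values 39.7 and 39.5. The difference was -1.36 (SE 0.39, limma adjusted p = 0.828). In whole roots, fewer cells with such plastids and less RNA per cell cannot be told apart. The summed signal of the nuclear shoot markers RCA and LHCB4.1, 2 of 9 looked for, was 339 in ara1/2mut replicate 1, the highest value. It was 186 in ara1/2mut replicate 2, the array with the highest plastid transcripts. A part of shoot tissue in the plastid signal was not tested.

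The hypoxia list holds genes of fermentation and of the conserved response to low oxygen, taken by locus from general knowledge. Its members, AT2G41730 among them, were chosen with earlier results of these data known, so its direction is not independent evidence. Of 17 named, 10 passed the filter. The difference was above 0 for 9 of the 10, with a median of 0.62, and 7 were above 0 in ara1OX and below 0 in ara1/2mut, a pair of signs that 22.3% of all probe sets had. A single member, AT2G41730, reached an unadjusted p under 0.05, as did 5.3% of all probe sets. PDC2, a pyruvate decarboxylase of ethanol fermentation, had a difference of 0.04 (ara1OX 0.00, ara1/2mut -0.04).

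AT2G41730 had signals of 151, 150 and 164 in Col-0 and 351, 268 and 369 in ara1OX, against 124, 99.2 and 141 in Col-3 and 104, 97.9 and 121 in ara1/2mut. The ara1OX arrays were the 3 highest of the 12, and ara1/2mut overlapped Col-3. It was 2.11-fold higher in ara1OX (log2 1.07, SE 0.18, limma adjusted p = 0.0616), with -0.16 (SE 0.18) in ara1/2mut and a difference of 1.24 (SE 0.25, limma adjusted p = 0.365). Its probe set carries the suffix _x, which Affymetrix gives to sets whose probes may also match other transcripts, so its signal is uncertain in origin.

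The mean log2 signal of the 10 hypoxia genes per array was 6.38, 6.55 and 6.37 in Col-0 and 6.87, 6.56 and 6.60 in ara1OX, against 6.73, 6.38 and 6.46 in Col-3 and 6.38, 5.81 and 6.33 in ara1/2mut. Every ara1OX array was above every Col-0 array, replicate 2 by a narrow margin, and ara1/2mut was at or below Col-3, with replicate 2 lowest of all 12. Leaving out 1 array moved the median difference by more than 1.5 times in 4 cases. It was 0.39 without Col-0 replicate 1, 0.37 without ara1OX replicate 1, 0.35 without Col-3 replicate 1 and 0.36 without ara1/2mut replicate 2, and it was 0.26 without Col-0 replicate 1 and ara1/2mut replicate 2 together. AT5G44730, with the second largest difference in the list (1.23, SE 0.73), rested on ara1/2mut replicate 1, at 7.11 against 40.6 and 45.9 in the other replicates.

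**Figure D5:**
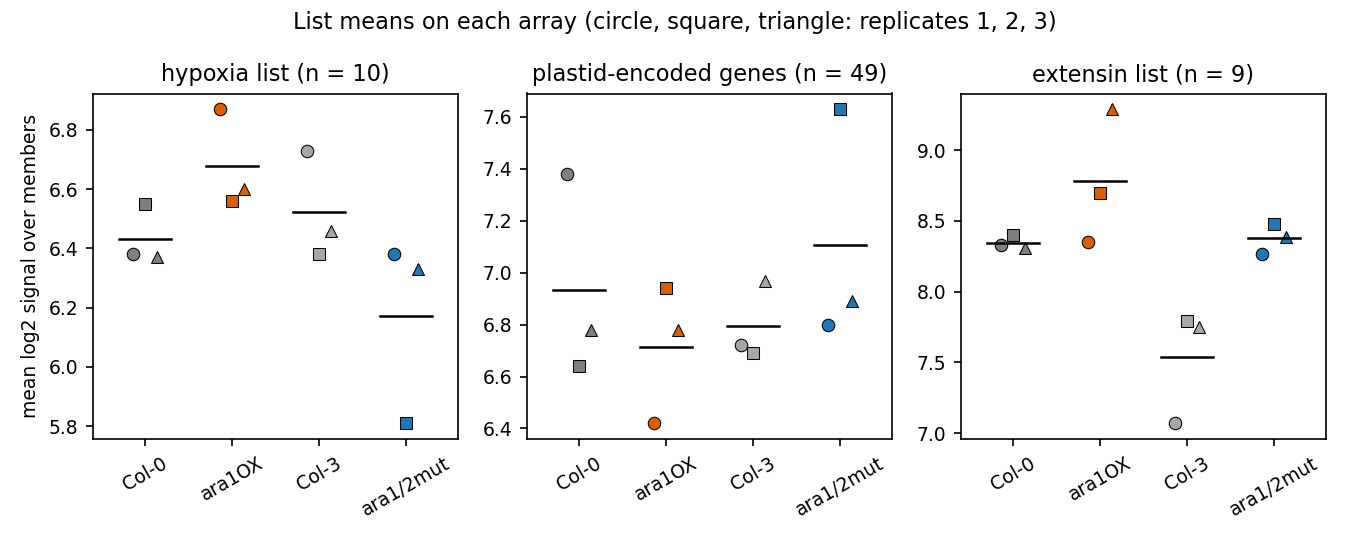
Mean log2 signal over the members of the hypoxia list (10 genes), the plastid-encoded genes (49) and the extensins (9) on each array; circle, square and triangle are replicates 1, 2 and 3 and the bar is the group mean. ara1/2mut replicate 2 is the lowest array for the hypoxia list (5.81) and the highest for the plastid genes (7.63), and Col-3 replicate 1 is the lowest for the extensins (7.07).

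Extensins had responses above 0 in both lines, each line being set against its own wild type. They are structural hydroxyproline-rich proteins of the cell wall, many of them made in growing root hairs. All 9 of the list passed the filter, and 7 of the 9 were above 0 in both lines. The list was known from earlier results of these data to be led by these genes, so its direction is not independent evidence. Over all probe sets, 22.3% were above 0 in both lines. The mean log2 signal of the 9 per array was 8.33, 8.40 and 8.31 in Col-0 and 8.35, 8.70 and 9.29 in ara1OX, against 7.07, 7.79 and 7.75 in Col-3 and 8.27, 8.48 and 8.39 in ara1/2mut. All ara1/2mut arrays were above all Col-3 arrays but at the level of Col-0, so the gap between ara1/2mut and Col-3 (8.38 against 7.54) was about that between the wild types (8.35 against 7.54), and ara1OX replicate 1 lay within Col-0. The median response was 0.52 in ara1OX and 0.97 in ara1/2mut. The median difference of -0.32 was -0.06 without Col-3 replicate 1, -0.14 without ara1OX replicate 1, -0.21 without Col-0 replicate 3 and -0.60 without ara1OX replicate 3. None of the 9 reached an unadjusted p under 0.05 in the difference.

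AT3G54580 had signals of 436, 448 and 480 in Col-0 and 625, 601 and 1335 in ara1OX, against 220, 289 and 451 in Col-3 and 485, 700 and 640 in ara1/2mut. Both lines were above their own wild type without overlap, and 2 of the 3 Col-3 arrays were below all Col-0 arrays. The responses were 0.81 (SE 0.28) and 0.97 (SE 0.28), and the difference -0.17 (SE 0.40, limma adjusted p = 0.974). HRGP1 was 1.44-fold higher in ara1OX and 1.80-fold higher in ara1/2mut, with mean signals of 1662 in Col-0 and 2437 in ara1OX, against 947 in Col-3 and 1656 in ara1/2mut. Its ara1/2mut level was thus close to that of Col-0. Neither response passed the adjusted threshold in either gene, and 4 of the 9 extensin probe sets, HRGP1 included, carry the suffix _x.

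The other root hair genes measured had smaller values than the extensin medians. EXPA7 and EXPA18, expansins of the growing hair, had differences of 0.23 (SE 0.24) and 0.01 (SE 0.24), with ara1OX responses of 0.37 and 0.25 and ara1/2mut responses of 0.13 and 0.24. Their responses were thus above 0 in both lines, as in the extensins, and the gap between the lists was not tested. The ara1OX arrays of EXPA7 lay above all Col-0 arrays, and the other 3 comparisons overlapped.

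Of the 26 probe sets that moved the same way, 14 (0.103%) were higher in both lines and 12 (0.0879%) lower, and the count ranged from 13 to 32 when 1 array was left out. It was 13 without Col-0 replicate 2, 14 without ara1OX replicate 3, 15 without Col-0 replicate 1 and 17 without Col-3 replicate 1. The named genes highest in this ranking were the extensins AT3G54580, AT4G08410, AT5G06630 and HRGP1, with AT1G72190 and AT2G41970. On the lower side were AT3G46540, AT4G07820, AT1G19130 and AT3G15610. AT4G07820 was lowest in ara1OX, with mean signals of 623 in Col-0 and 278 in ara1OX, against 786 in Col-3 and 558 in ara1/2mut, responses of -1.16 and -0.57. For these 10 named genes the difference in response lay between -0.65 and 0.10. The other 3 named genes, all higher in both lines, were AT3G28550, AT5G16010 and AT3G49960, with differences of -0.61, 0.49 and -0.17, and AT5G16010 was the only 1 of the 13 with an unadjusted p under 0.05 in the difference (limma adjusted p = 0.915).

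Genes of lateral root formation, the process ARABIDILLO is known for, gave no difference in response that reached an unadjusted p under 0.05 among the 4 measured. LBD16, a transcription factor that starts lateral root founder cell division, had a difference of -0.12 (SE 0.30), and its relative LBD29 had 0.15 (SE 0.64). PUCHI, which shapes the young primordium, had 0.69 (SE 0.60), and SKP2A, an F-box protein of cell cycle control, -0.23 (SE 0.34). LBD16 measured 63.6, 63.6 and 74.8 in Col-0 and 65.0, 62.8 and 88.7 in ara1OX, against 65.6, 49.7 and 60.9 in Col-3 and 69.5, 55.7 and 78.1 in ara1/2mut. All 4 groups overlapped. The 95% confidence interval of its difference, -0.75 to 0.52, leaves room for a change of either sign, and that of PUCHI reached from -0.60 to 1.97.

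In all, 5 auxin response genes were measured, none at an unadjusted p under 0.05, with a median difference of 0.23. The Aux/IAA repressor gene IAA31 had the largest, 0.82, from 0.54 in ara1OX and -0.27 in ara1/2mut, and GH3.17, for an enzyme that conjugates auxin to an amino acid, had -0.42. Class III peroxidases, enzymes of the cell wall, were balanced, with 20 of 38 above 0, 18 below and a median of 0.01. At an unadjusted p under 0.05 were 2 of the 38, AT5G39580 (1.00) and AT2G35380 (0.50), both above 0. Of all probe sets 5.3% reached that limit, 2.1% above 0 and 3.21% below 0. Expansins (11 measured, median 0.02) and UDP-glycosyltransferases outside the UGT72E group showed differences of both signs.

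In other lists single members reached an unadjusted p under 0.05 in the difference, as did 5.3% of all probe sets. The serine carboxypeptidase-like gene scpl20 differed on the loss side, with signals of 332, 245 and 278 in Col-0 and 245, 256 and 281 in ara1OX, against 313, 300 and 319 in Col-3 and 115, 172 and 217 in ara1/2mut. The ara1/2mut arrays were below all others. Col-0 overlapped both ara1OX and Col-3, while all Col-3 arrays were above all ara1OX arrays. It was 1.91-fold lower in ara1/2mut (log2 -0.93, SE 0.20, limma adjusted p = 0.759), against -0.12 (SE 0.20) in ara1OX, and the difference was 0.81 (SE 0.28, limma adjusted p = 0.905). The linker histone gene HIS1-3, known from drought responses, had a difference of 0.89. The glutathione transferases GSTU28 and GSTU27 differed in opposite directions, 0.94 and -0.61, and XTH32, an enzyme that cuts and rejoins wall xyloglucan, had -1.01. Each had an unadjusted p under 0.05 and an adjusted p above 0.05 in limma.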

How the data were processed

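Total RNA of roots was hybridised to Affymetrix ATH1 arrays, 1 array per sample. The authors deposited linear intensities that MAS5 had computed, per the submitters' processing notes. Its version and target value are not given in the labels. Each deposited array had a trimmed mean intensity of 100 (2% left out at each end), which hides any shift shared by all transcripts.

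All 12 arrays entered 1 linear model on log2 intensity, with a coefficient per group (limma 3.58.1 in R 4.3.3, variance trend, 8 residual and 7.49 prior degrees of freedom). Of 22810 probe sets, 64 controls and those with a mean log2 intensity under the 40th percentile (4.49, a signal of 22.4) were left out, which left 13648. Tests were two-sided, p-values were adjusted by Benjamini-Hochberg over the 13648, and the number of arrays limits the precision. An overlap means that the arrays of a line and its wild type cannot be separated by a threshold on signal.

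The platform gene table named 1 gene for 13513 probe sets and several for 503, the latter left unnamed along with 8730 others, and 13436 probe sets were matched to 13286 genes of TAIR10.1. The members and gene lists were chosen with earlier results of these data known. Lists came from gene symbols and chromosome, and those of extensins, peroxidases, hypoxia, root hair and lateral root genes from loci of general knowledge, with the probe set of highest mean signal per gene. The 25 lists with fewer than 5 measured genes have no median. Named in the text were, in limma's fit, the 15 genes with the smallest p in each direction of the difference, up to 10 opposite and 6 same-direction genes a side, up to 4 members of each list and the 5 genes most correlated with a called probe set. UGT72E2, the third member of its group, clpP, psbL and AT5G44730 fell under the rule on lists, and the lateral root and root hair genes were given in full.

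Data were simulated for the same layout of 12 arrays, with independent normal noise whose SD for a probe set was equal in all groups. There the test of the difference in response over 13648 probe sets recovered 24% of 100 planted changes of log2 1 and 76% of 100 of log2 2. It made 7 false calls, and 0 calls with none planted. The real arrays differ in spread between groups (SD 0.45 in ara1OX, 0.31 in Col-0) and share some deviations, so these rates may not hold for them.

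The alternatives tried were array weights, the replicate number as a block, a covariate for spike-in level, an untrended variance, a pseudocount of 16, the filter dropped or set to the 60th percentile, quantile or median scaling between arrays, and the omission of each array in turn. Rules on overlap and the joint omission of 2 arrays were added after seeing the data.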

Additional observations from a re-analysis of the deposited data

Results flagged for a closer look

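In 2 probe sets the response to gain differed from the response to loss by the test of the difference itself (limma, adjusted over all probe sets). For 266815_at the difference, ara1OX minus ara1/2mut, was 4.07 on the log2 scale (adjusted p = 0.00926), with mean signals of 52.9 in Col-0 and 402 in ara1OX, against 67.1 in Col-3 and 33.8 in ara1/2mut. It was higher in 3 of 3 ara1OX arrays than in any Col-0 array. For 265032_at the difference was 1.45 (adjusted p = 0.0304), with mean signals of 135, 324, 147 and 129 in the same order, and its ara1OX arrays were again above all Col-0 arrays. No gene is named for either in the tables used here, so either could measure a targeted gene itself, which cannot be told here.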

How the results depend on the processing

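No followed gene or probe set, of 45, reversed its sign under any of the 20 or 21 alternatives that tested it, the 60th-percentile filter having left some out. The count of 2 for the difference in response became 1 with median centring, 0 with no variance trend and 0 to 2 when 1 array was left out. The 3 calls of ara1OX became 15 with array weights and 3 to 14 when 1 array was left out. The 0 calls of ara1/2mut became 4 with array weights and 0 to 1 when 1 array was left out. Opposite probe sets (27) numbered 49 with array weights, 2 at p under 0.01, 101 by the overlap rule and 14 to 43 when 1 array was left out, and same-direction probe sets (26) numbered 44, 0, 59 and 13 to 32. Array weights gave ara1OX replicates 1 and 3 and ara1/2mut replicate 1 the lowest values (0.51, 0.501 and 0.418). Fewer arrays in a fit lower its power by construction, and otherwise the cause was not tested.

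Same-numbered arrays of different groups shared deviations only in part. Their 18 correlations ran from -0.08 to 0.33 (median 0.13), 10 of them over 0.1. The 36 pairs of different number had a median of -0.04. Deviations from a group mean sum to 0 within the group, so the 2 medians are not independent. Pairs numbered 2 ran only from -0.08 to 0.1. Of the 12 arrays, 9 correlated best with one of their own number. With the replicate block, calls numbered 2 in the difference, 17 in ara1OX and 0 in ara1/2mut, with 35 opposite and 42 same-direction probe sets.

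Medians of lists moved by more than the spread between replicates in these cases. With the filter at the 60th percentile they were -0.06 for UDP-glycosyltransferases, -0.02 for auxin response and 0.40 for the hypoxia list. With array weights and with the spike-in level, the TBL wall acetylation genes had -0.21 and -0.20. With quantile normalization, bZIP factors had -0.11 and abscisic acid, cold and LEA genes -0.14. Without the second arrays of Col-3 and ara1/2mut together the hypoxia list had 0.39, and without Col-0 replicate 1 and ara1/2mut replicate 2 together it had 0.26 and the plastid genes -0.03. Leaving out 1 array gave ranges of -0.16 to 0.12 for xyloglucan enzymes, -0.11 to 0.10 for UDP-glycosyltransferases, -0.27 to -0.05 for TBL wall acetylation, -0.04 to 0.17 for glycosyl hydrolases, -0.25 to -0.01 for RING and U-box proteins, -0.01 to 0.34 for auxin response, -0.12 to 0.17 for bHLH factors, -0.24 to -0.11 for bZIP factors, -0.13 to 0.03 for abscisic acid, cold and LEA genes, -0.04 to 0.19 for histones, -0.01 to 0.28 for tubulins and kinesins, -0.14 to 0.08 for thioredoxins and 0.35 to 0.84 for the hypoxia list.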

Other observations

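A pair of transcripts passed the threshold in the difference in response under a single alternative only, and both are given because their values were seen. TOPII, which encodes the DNA topoisomerase that untangles chromosomes, had a difference of -4.07 (limma adjusted p = 0.0294) when ara1OX replicate 2 was left out. Probe set 251407_at, which has no named gene here, had -2.23 (limma adjusted p = 0.0392) when the level of the spike-ins entered the fit.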
